A study of Homo sapiens with 6 samples.

Results

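The genes described here are 10 of chromatin assembly and methylation, most of them tied to rebuilding chromatin behind the replication fork. The 10 are DNMT1, UHRF1, HELLS, EZH2, CHAF1A, CHAF1B, ASF1B, SUV39H1, SUV39H2 and DNMT3B. They were taken by gene symbol from the 53826 entries listed for each library, and each symbol occurs there 1 time. Their mRNA was measured by RNA-seq in PK-1 and in Panc-1, human pancreatic ductal adenocarcinoma (PDAC) cell lines. For each line there is 1 control library and, after 24 h with an antagonist of retinoic acid receptor γ, 1 library for RARγi-1 (LY2955303) and 1 for RARγi-2 (MM11253), 6 in all. Neither the RNA-seq doses nor the vehicle are given in the sources used here. Both RARγi-2 libraries carry a treatment label of RARγi-1, and their titles were followed instead.

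When DNA is copied, each daughter duplex carries methyl groups on the parental strand only. UHRF1 recognises such hemimethylated CpG sites and brings in DNMT1, the maintenance methyltransferase, while HELLS, a remodeller of the SNF2 family, opens nucleosomes for the reaction. New histones H3 and H4 are handed from ASF1 to the CAF-1 complex (CHAF1A, CHAF1B and RBBP4), which is held at the fork by the sliding clamp PCNA. SUV39H1 and SUV39H2 place trimethylation on H3 lysine 9 in heterochromatin, and EZH2, the catalytic subunit of PRC2, places it on H3 lysine 27. DNMT3B is chiefly a de novo DNA methyltransferase and is the member least tied to the fork. Several of these genes are classical targets of E2F transcription factors and are transcribed most strongly in cycling cells.

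Of the 10 genes, 7 fell more than 2-fold in all 4 comparisons of a treated library with the control library of its cell line: UHRF1, HELLS, ASF1B, DNMT1, CHAF1A, CHAF1B and SUV39H1. SUV39H2 fell more than 2-fold in 3 of the 4 comparisons, EZH2 in 1, and DNMT3B in none. With a pseudocount of 5 in place of 1, SUV39H2 passed in 1, EZH2 in none and SUV39H1 in 3. Levels are given in TPM, which corrects for transcript length and gives every library a nearly equal total, in the order control, RARγi-1 and RARγi-2, and a fold change is the log2 ratio of TPM + 1 to that of the control, which shrinks the change of low values. Taken singly, 8 of the 10 genes passed 2-fold downward with RARγi-1 (PK-1), 9 with RARγi-2 (PK-1), 7 with RARγi-1 (Panc-1) and 8 with RARγi-2 (Panc-1). The background is the 12412 entries with 5 TPM or more somewhere, all 10 genes included, of which 5.2%, 13.5%, 6.51% and 12% passed that threshold in the respective comparisons and 2.19% in all 4. With both inhibitors, 8 of the 10 fell in PK-1, against 4.99% of the background, and 7 fell in Panc-1, against 6.13%. None of the 10 passed 2-fold upward, where the background was 9.91%, 12.9%, 7.86% and 9.02%. At 3-fold, 4 and 8 of the 10 passed downward in PK-1 (background 1.68% and 6.14%), 5 and 6 in Panc-1 (2.4% and 5.37%) and 4 in all 4 comparisons (0.709%). At 1.5-fold, 8 passed in all 4 (5.76%). The 10 genes were chosen with earlier results of these data known, so these counts and shares describe the list and test nothing. The median log2 fold change of the 10 genes was -1.54 and -2.47 in the treated PK-1 libraries, and -1.51 and -1.75 in those of Panc-1, against medians between 0 and 0.13 over the tested entries. In these bulk libraries, fewer cycling cells and less of a transcript per cell cannot be told apart.

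Because every condition has 1 library, differences within a line lack a replicate check, no p-values are given, and TPM keeps no read depth. As a stand-in, the robust standard deviation of the log2 difference between the treated libraries of a line was used, although real differences between the inhibitors enter it. This fold change spread was 0.41 for PK-1 and 0.32 for Panc-1. Rescaling by median ratios would lower every fold change of PK-1 RARγi-1 by about 0.14 and shift those of the other comparisons by less than 0.1. In each library, 74.6% to 75.6% of entries lay at 1 TPM, the lowest value the files hold. All 5 epithelial keratin and adhesion genes checked (KRT7, KRT8, KRT18, KRT19 and EPCAM) were above this floor in every library, although KRT7 was at 4.19 TPM or less in Panc-1. Their summed level was 22328, 13237 and 13742 TPM (PK-1) and 8418, 1783 and 1484 TPM (Panc-1). Of 12 markers of leukocytes, endothelium, fibroblasts and acinar cells, 10 were at the floor in all 6 libraries. The exceptions were CD68, which encodes a lysosomal protein, at 19.8 to 276 TPM, and PRSS1, which went from 1.06 TPM in PK-1 Control to 11.1 and 21.2 TPM. The 12 summed to 30.9, 116 and 93.9 TPM (PK-1) and 255, 287 and 249 TPM (Panc-1), and the part of either marker list in the results was not tested.

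**Figure D1:**
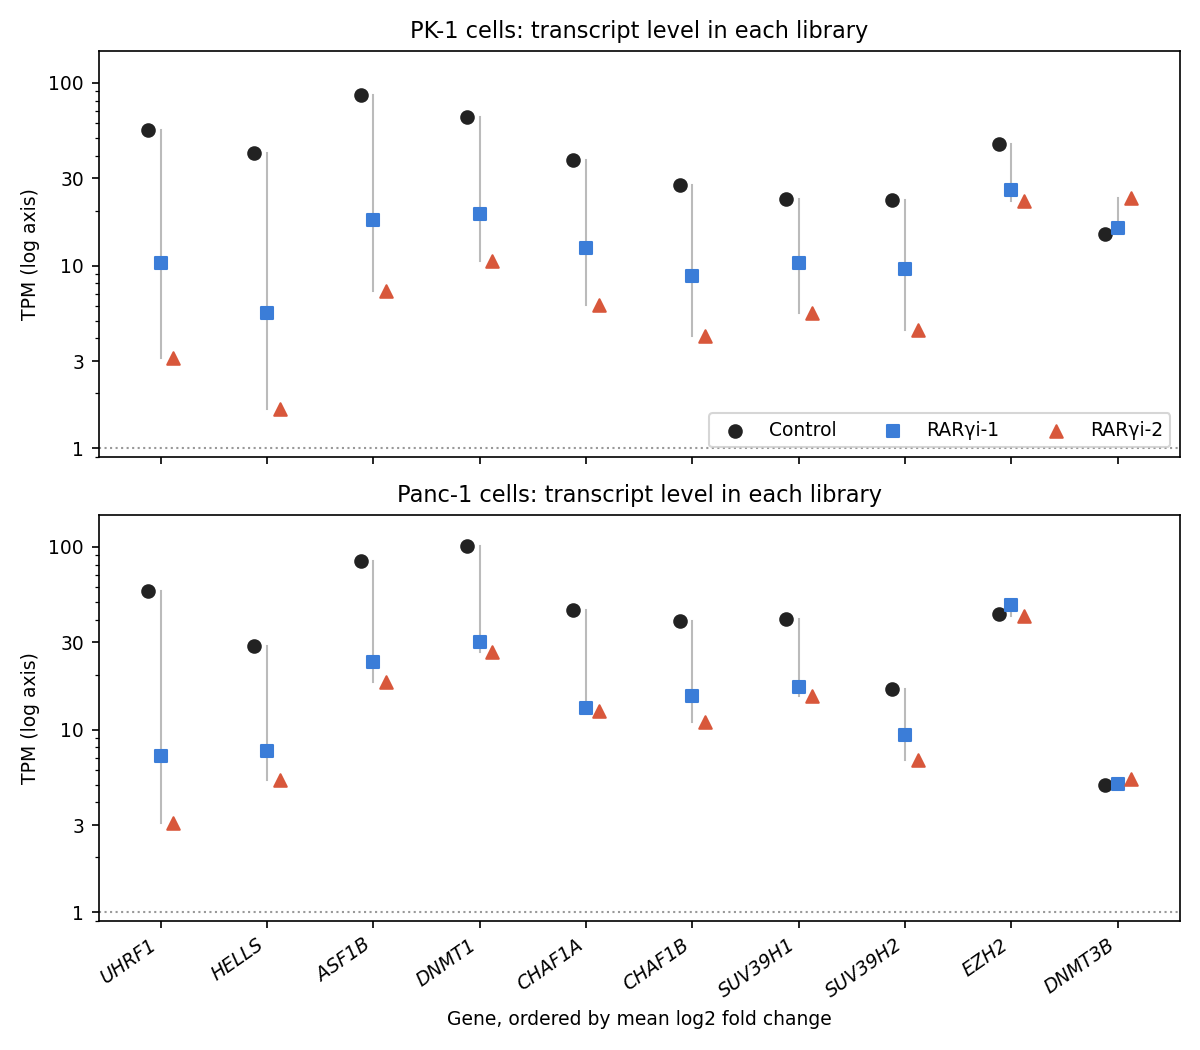
TPM of each gene on a log axis in the control (black circles), RARγi-1 (blue squares) and RARγi-2 (red triangles) libraries of PK-1 (top) and Panc-1 (bottom), 1 library per point; the dotted line is the floor of 1 TPM. UHRF1 falls from 55.2 to 3.11 TPM (PK-1) and from 57.6 to 3.10 TPM (Panc-1) with RARγi-2, while DNMT3B stays between 4.96 and 5.39 TPM (Panc-1).

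The regulatory sequence around the start sites is shown for 6 genes: the 4 members whose promoter holds an E2F word, DNMT3B, which did not fall, and EZH1, a relative of EZH2 that holds such a word and did not fall. Each is 120 bases before and 30 bases after a RefSeq start (GRCh38.p14, the hg38 build of the submitters), 5′ to 3′ on the gene's strand, and capitals mark E2F words on either strand.
UHRF1, chr19:4909381-4909530, plus strand: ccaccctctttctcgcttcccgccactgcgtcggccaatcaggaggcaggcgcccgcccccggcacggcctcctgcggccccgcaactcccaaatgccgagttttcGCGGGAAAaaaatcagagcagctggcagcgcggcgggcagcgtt
HELLS, chr10:94545668-94545817, plus strand: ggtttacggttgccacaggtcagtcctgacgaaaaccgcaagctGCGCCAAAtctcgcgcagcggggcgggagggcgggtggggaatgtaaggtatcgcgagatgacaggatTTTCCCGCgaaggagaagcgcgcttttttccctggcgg
DNMT1, chr19:10194924-10195073, minus strand: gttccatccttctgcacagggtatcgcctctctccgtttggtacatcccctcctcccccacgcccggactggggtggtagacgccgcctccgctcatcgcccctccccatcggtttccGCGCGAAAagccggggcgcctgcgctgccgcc
EZH2, chr7:148884262-148884411, minus strand: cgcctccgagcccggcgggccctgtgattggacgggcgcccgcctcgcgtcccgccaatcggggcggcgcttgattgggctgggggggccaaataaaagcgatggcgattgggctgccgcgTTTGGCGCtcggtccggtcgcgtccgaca
DNMT3B, chr20:32779732-32779881, plus strand: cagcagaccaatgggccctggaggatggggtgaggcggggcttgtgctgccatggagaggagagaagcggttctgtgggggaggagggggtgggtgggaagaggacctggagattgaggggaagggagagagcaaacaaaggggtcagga
EZH1, chr17:42745011-42745160, minus strand: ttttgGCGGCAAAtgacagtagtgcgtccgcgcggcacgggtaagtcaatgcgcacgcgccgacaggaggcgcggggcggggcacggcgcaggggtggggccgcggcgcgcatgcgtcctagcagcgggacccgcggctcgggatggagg
The search covered 250 bases before to 50 after each RefSeq start, on both strands, for TTTCCCGC, TTTGGCGC, TTTCGCGC or TTTGCCGC. At least 1 of these words was found for 4 of the 10 members (UHRF1, HELLS, DNMT1 and EZH2), in 3.31% of the 35116 windows of the table and for 6.75% of the 9786 tested genes that have a window. HELLS held 2 words, at -76 and -8 from the start, UHRF1 held 1 at -14 of the start shown and 1 at -160 of another, DNMT1 1 at -2 and EZH2 1 at 2. The cell cycle element CHR, searched as TTTGAA or TTCGAA, was found in ASF1B, at -27, and in SUV39H2, at 3, and for 14.7% of the tested genes. The CCAAT box was found for 7 of the 10 members and for 43.0% of the tested genes, and no match of 1 motif overlapped another motif in the windows of the members. Some genes have several starts in the table (3 for UHRF1). All 3 starts of UHRF1 and the only one listed for DNMT3B lie inside the gene spans given below. The sequence at the 5′ end of these spans was therefore neither searched nor shown. For DNMT3B, the lack of an E2F word holds for the window shown and not for a promoter at the 5′ end. The words are letters in these windows and not measured sites. Of the 7 genes down in all 4 comparisons, 3 (UHRF1, HELLS and DNMT1) held an E2F word and 4 did not.

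DNMT1, UHRF1 and HELLS, which carry CpG methylation through replication, all fell more than 2-fold in every comparison. UHRF1 (Entrez gene 29128, chr19:4903080-4962154) was at 55.2 TPM in PK-1 Control, falling to 10.3 TPM (RARγi-1) and 3.11 TPM (RARγi-2). In Panc-1 it was at 57.6, 7.14 and 3.10 TPM, so that 5.63% (PK-1) and 5.39% (Panc-1) of the control level remained with RARγi-2. Its log2 fold changes were -2.32 and -3.77 (PK-1) and -2.85 and -3.84 (Panc-1). Counted from the lowest of the 12412 tested entries, UHRF1 stood at position 34 and 18 (PK-1) and at 22 and 9 (Panc-1). It was the lowest of the 10 genes in both Panc-1 comparisons, and its control levels were nearly equal in the lines.

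HELLS (3070, chr10:94545788-94613905) was the lowest of the 10 genes in both PK-1 comparisons. It was at 41.3 TPM in PK-1 Control, and RARγi-1 left 5.50 TPM and RARγi-2 only 1.64 TPM, close to the floor. In Panc-1 it went from 28.7 to 7.64 and 5.31 TPM. The log2 fold changes were -2.70 and -4.00 (PK-1) and -1.78 and -2.24 (Panc-1). The Panc-1 value lay above the PK-1 value by 0.92 with RARγi-1 and by 1.77 with RARγi-2, the latter being the widest gap between the lines among the 10 genes.

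DNMT1 (1786, chr19:10133346-10194953) had the highest level of the 10 genes in Panc-1 Control, at 101 TPM, against 65.2 TPM in PK-1 Control. It went to 19.2 and 10.6 TPM in the treated PK-1 libraries, and to 30.2 and 26.5 TPM in those of Panc-1. With RARγi-1 the fold change was the same in both lines, at -1.71. With RARγi-2 it was -2.51 (PK-1) and -1.89 (Panc-1). Between 16.3% and 29.9% of the control level remained in the treated libraries.

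Among 11 further genes of DNA methylation, its partners and readers, 1 passed 2-fold downward in all 4 comparisons and none upward, against 2.19% and 2.71% of the tested entries. That gene was CDCA7, which forms a remodelling complex with HELLS. CDCA7 went from 51.0 to 8.61 and 1.47 TPM (PK-1), and from 71.3 to 28.6 and 15.5 TPM (Panc-1). The medians of the 10 of these genes that reached 5 TPM were between -0.30 and 0.10. USP7, the deubiquitinase that stabilises UHRF1 and DNMT1, was at 75.4, 61.2 and 54.4 TPM (PK-1) and at 78.9, 79.8 and 87.8 TPM (Panc-1). MBD3, a subunit of the NuRD complex, had log2 fold changes of -0.72 and -0.91 (PK-1) and -0.51 and -0.48 (Panc-1). UHRF2, the relative of UHRF1, was at 15.7, 15.7 and 11.9 TPM (PK-1) and at 13.8, 20.4 and 13.95 TPM (Panc-1). In both control libraries UHRF1 exceeded UHRF2, by 3.51-fold and 4.18-fold, and in all 4 treated libraries UHRF2 exceeded UHRF1, by 1.52-fold to 4.50-fold.

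**Figure D2:**
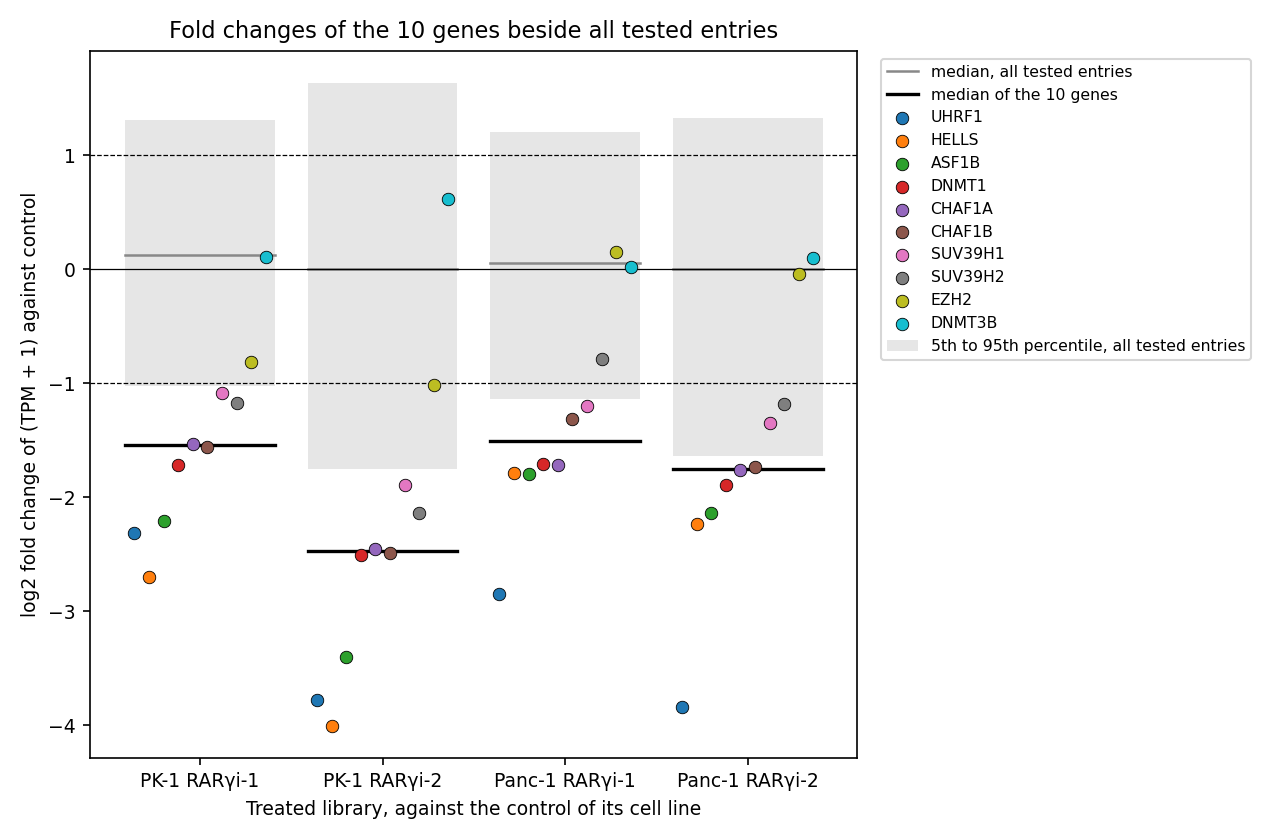
Log2 fold change of (TPM + 1) of each gene (coloured points) in the 4 treated libraries against the control of the line, with the median of the 10 genes (black), and the median and the 5th to 95th percentile range of the 12412 tested entries (grey). Dashed lines mark 2-fold, and EZH2 and DNMT3B lie near 0 in both Panc-1 comparisons.

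The nucleosome assembly genes CHAF1A, CHAF1B and ASF1B also fell more than 2-fold in every comparison. CHAF1A (10036, chr19:4402640-4450830), the large subunit of CAF-1, was at 38.0 TPM in PK-1 Control, then 12.5 and 6.12 TPM in the libraries for RARγi-1 and for RARγi-2. In Panc-1 it was at 45.3, 13.1 and 12.7 TPM, so the treated Panc-1 libraries differed little. CHAF1B (8208, chr21:36385392-36419015), the middle subunit, went from 27.8 to 8.79 and 4.12 TPM (PK-1) and from 39.2 to 15.2 and 11.1 TPM (Panc-1). The log2 fold changes of both subunits were nearly equal in PK-1 (RARγi-1 -1.53 and -1.55, RARγi-2 -2.45 and -2.49). In Panc-1 they were -1.72 and -1.31 with RARγi-1, and -1.76 and -1.74 with RARγi-2. RBBP4, the third subunit and a member of several other complexes, had log2 fold changes of -0.31 and -0.37 (PK-1) and -0.55 and -0.36 (Panc-1).

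ASF1B (55723, chr19:14119512-14136589), the H3-H4 chaperone of cycling cells, was at 85.8 TPM in PK-1 Control, the highest of the 10 genes there, and at 17.8 and 7.23 TPM in the treated libraries. In Panc-1 it went from 83.8 to 23.4 and 18.3 TPM. Its relative ASF1A was higher than control in all 4 treated libraries and passed 2-fold in those of Panc-1: 19.3, 31.2 and 28.9 TPM (PK-1) and 32.9, 70.9 and 79.1 TPM (Panc-1), with log2 fold changes of 0.67 and 0.56 (PK-1) and 1.09 and 1.24 (Panc-1). The ASF1B transcript was 4.45-fold (PK-1) and 2.55-fold (Panc-1) as abundant as ASF1A in the controls, and ASF1A was 1.75-fold to 4.31-fold as abundant as ASF1B in the treated libraries.

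The list of 21 other histone chaperones and their partners had 2 genes down more than 2-fold in all 4 comparisons, and none up. Over the tested entries, 2.19% passed downward and 2.71% upward. The 2 genes were NASP, which holds the soluble H3-H4 pool, and TONSL, which binds new histones on replicated DNA. NASP went from 207 to 75.3 and 45.0 TPM (PK-1) and from 198 to 83.8 and 74.2 TPM (Panc-1). TONSL went from 30.1 to 8.73 and 5.15 TPM (PK-1) and from 35.5 to 10.004 and 7.25 TPM (Panc-1). Taken singly, 7 and 9 of the 21 passed downward in PK-1 (background 5.2% and 13.5%) and 2 and 4 in Panc-1 (6.51% and 12%). Upward, 1 and 1 passed in PK-1 (9.91% and 12.9%) and 1 and 2 in Panc-1 (7.86% and 9.02%). List medians were -0.31 and -0.67 (PK-1) and -0.47 and -0.67 (Panc-1). SSRP1, a subunit of the FACT chaperone, had log2 fold changes of -0.87 and -1.41 (PK-1) and -0.26 and -0.50 (Panc-1). NAP1L4, a chaperone of H2A and H2B, stayed within the fold change spread throughout, between -0.30 and -0.02. Without a pseudocount, 4 genes of this list passed 2-fold downward in all 4 comparisons in place of 2, and after rescaling by median ratios 3 did.

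**Figure D3:**
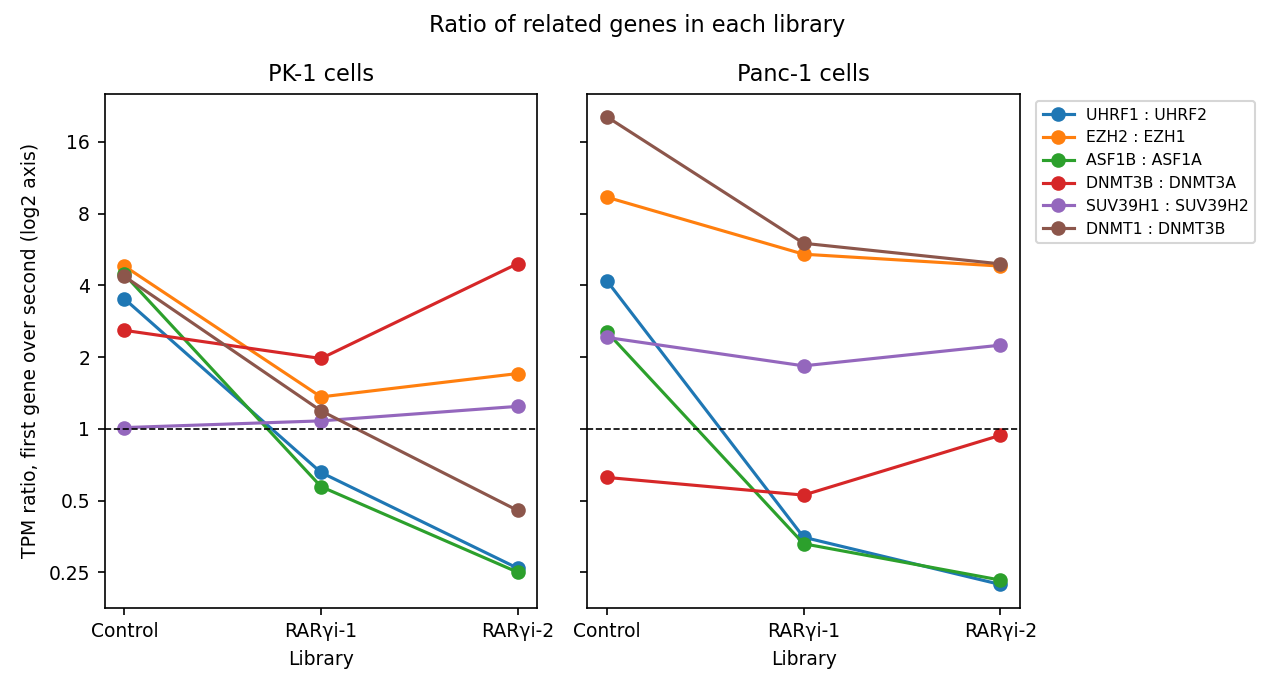
Ratio of the TPM of related genes (first over second, log2 axis) in the control, RARγi-1 and RARγi-2 libraries of PK-1 (left) and Panc-1 (right); the dashed line marks equal levels. The ratios of UHRF1 to UHRF2 and of ASF1B to ASF1A cross from above 1 in the controls to below 1 in all 4 treated libraries.

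SUV39H1 and SUV39H2 had log2 fold changes closer to 0 than those of the 6 genes above. SUV39H1 (6839, chrX:48695554-48709016) was at 23.1, 10.4 and 5.51 TPM (PK-1) and at 40.5, 17.1 and 15.3 TPM (Panc-1). Its log2 fold changes were -1.09 and -1.89 (PK-1) and -1.20 and -1.35 (Panc-1). SUV39H2 (79723, chr10:14878866-14904315) was at 22.9, 9.60 and 4.44 TPM (PK-1) and at 16.8, 9.31 and 6.81 TPM (Panc-1). It had log2 fold changes of -1.17 and -2.13 (PK-1) and -0.78 and -1.18 (Panc-1), of which -0.78 is past the fold change spread but short of 2-fold. SUV39H1 was 1.01-fold to 1.24-fold as abundant as SUV39H2 in the PK-1 libraries and 1.84-fold to 2.42-fold in the Panc-1 libraries. The widest change was in Panc-1, from 2.42-fold in the control to 1.84-fold with RARγi-1.

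None of 10 other genes of H3 lysine 9 methylation and heterochromatin protein 1 (HP1) passed 2-fold in all 4 comparisons in either direction. Over the tested entries, 2.19% did so downward and 2.71% upward. In the single comparisons, 6 of the 10 passed downward with RARγi-2 in PK-1 and 3 in Panc-1 (background 13.5% and 12%). None passed downward with RARγi-1 (5.2% and 6.51%), and none upward in any comparison (9.91%, 12.9%, 7.86% and 9.02%). The medians of the 9 listed genes that reached 5 TPM were -0.74 and -1.07 (PK-1) and -0.59 and -0.90 (Panc-1). CBX3, which encodes HP1γ, went from 334 to 191 and 94.97 TPM (PK-1) and from 422 to 232 and 194 TPM (Panc-1). TRIM28, the corepressor that recruits SETDB1, had log2 fold changes of -0.74 and -1.07 (PK-1) and -0.84 and -0.90 (Panc-1).

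EZH2 was lower with both inhibitors in PK-1 and near its control level in Panc-1. EZH2 (2146, chr7:148807383-148884291) was at 46.6 TPM in PK-1 Control, with 26.1 and 22.5 TPM after treatment, and at 43.2, 47.9 and 42.0 TPM (Panc-1). Both treated PK-1 libraries lay below every Panc-1 library. The log2 fold changes were -0.81 and -1.02 (PK-1), past the fold change spread, and 0.15 and -0.04 (Panc-1), within it. The Panc-1 value lay above the PK-1 value by 0.96 with RARγi-1 and by 0.98 with RARγi-2. This difference has no replicate check, and 3.56% of the tested entries likewise lay below the spread with both inhibitors in PK-1 and within it with both in Panc-1. Opposite directions in the lines, each past the fold change spread, were found for none of the 10 genes and for 1.35% of the tested entries.

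Of 8 further genes of PRC2, its core subunits, accessory subunits and EZH1, none passed 2-fold in all 4 comparisons. Over the tested entries, 2.19% did so downward and 2.71% upward. In the single comparisons, 1 and 3 of the 8 passed downward in PK-1 (background 5.2% and 13.5%) and 0 and 2 in Panc-1 (6.51% and 12%). Upward, 1 and 1 passed in PK-1 (9.91% and 12.9%) and none in Panc-1 (7.86% and 9.02%). The medians of the 8 genes were -0.32 and -0.73 (PK-1) and -0.18 and -0.56 (Panc-1). The core subunit EED was at 41.1, 18.6 and 12.8 TPM (PK-1) and at 37.5, 26.1 and 18.7 TPM (Panc-1). SUZ12, the other core subunit, was at 40.1, 27.6 and 20.8 TPM (PK-1) and at 31.7, 27.9 and 18.8 TPM (Panc-1). The accessory subunits differed in direction: PHF19 had log2 fold changes of -0.93 and -1.67 (PK-1) and -0.74 and -1.09 (Panc-1), and PHF1 had 1.38 and 1.67 (PK-1) and 0.62 and 0.89 (Panc-1). EZH1, the alternative catalytic subunit of resting cells, was higher than control in all 4 treated libraries, at 9.66, 19.2 and 13.2 TPM (PK-1) and 4.61, 8.87 and 8.71 TPM (Panc-1). Its value of 0.41 with RARγi-2 in PK-1 equalled the fold change spread. EZH2 remained the more abundant of the pair in every library, by 4.82-fold and 9.36-fold in the controls and by 1.36-fold to 5.40-fold in the treated libraries.

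DNMT3B did not pass 2-fold in any comparison. DNMT3B (1789, chr20:32762385-32809356) was at 15.0, 16.1 and 23.4 TPM (PK-1) and at 4.96, 5.02 and 5.39 TPM (Panc-1). The log2 fold change of 0.61 with RARγi-2 in PK-1 was past the fold change spread, and the other 3 (PK-1 0.10, Panc-1 0.02 and 0.10) were within it. Rescaled by median ratios, the values with RARγi-1 changed sign (PK-1 -0.03, Panc-1 -0.05). The lines differed more at baseline, with 3.02-fold more DNMT3B in PK-1 Control than in Panc-1 Control, the largest gap between the controls among the 10 genes. DNMT1 exceeded DNMT3B by 4.36-fold in PK-1 Control and 20.4-fold in Panc-1 Control, and by 4.92-fold or more in the treated Panc-1 libraries. In the RARγi-1 library of PK-1 the ratio was 1.19, and in the RARγi-2 library DNMT3B exceeded DNMT1 by 2.20-fold. DNMT3A, the other de novo methyltransferase, was at 5.78, 8.19 and 4.75 TPM (PK-1) and at 7.93, 9.53 and 5.74 TPM (Panc-1).

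The treated libraries were also compared with each other, which does not use the control. The doses are not given, so the values describe these libraries and not the potency of the compounds. In PK-1, 9 of the 10 genes were lower with RARγi-2 than with RARγi-1, 8 of them by more than the fold change spread, with a median log2 difference of -0.93. The widest differences were those of UHRF1, at -1.46, HELLS, at -1.30, and ASF1B, at -1.20, and DNMT3B was higher, at 0.51. In Panc-1, 9 of the 10 were again lower with RARγi-2, 5 by more than the spread, with a median of -0.26. When rescaled by median ratios, CHAF1A, at -0.04, turned to 0.05. ASF1B and SUV39H2, 2 of these 5, then came within the spread, at -0.24 and -0.31. UHRF1 had the widest difference there too, at -0.99, whereas SUV39H1, at -0.15, lay within the spread. Over all tested entries, 62.9% (PK-1) and 61.4% (Panc-1) were lower with RARγi-2, and 25.7% and 25.6% were lower by more than the spread. The median log2 difference of the tested entries was -0.14 (PK-1) and -0.09 (Panc-1).

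The order of the 10 genes was alike in the lines, whose libraries are separate. Spearman's rho between the PK-1 and Panc-1 fold changes over the 10 genes came to 0.90 for RARγi-1 and 0.96 for RARγi-2, a description over genes and not over replicates. The correlation over all tested entries was not computed, so the likeness cannot be called particular to these genes. UHRF1, HELLS and ASF1B were the 3 lowest in each comparison, and EZH2 and DNMT3B were the 2 highest in each. With RARγi-1, CHAF1A, UHRF1 and SUV39H1 fell somewhat further in Panc-1. Of these differences that of UHRF1, at -0.53, exceeded the fold change spread of either line and the other 2 did not. That spread describes a fold change within a line, whereas a difference between the lines combines the variation of both. It is thus too narrow a measure here, and the difference of UHRF1 was not tested. With RARγi-2, UHRF1 differed by -0.06 between the lines, that of DNMT3B was -0.51 in Panc-1 relative to PK-1, and the fold changes of the other 8 genes were higher in Panc-1 by 0.54 to 1.77.

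**Figure D4:**
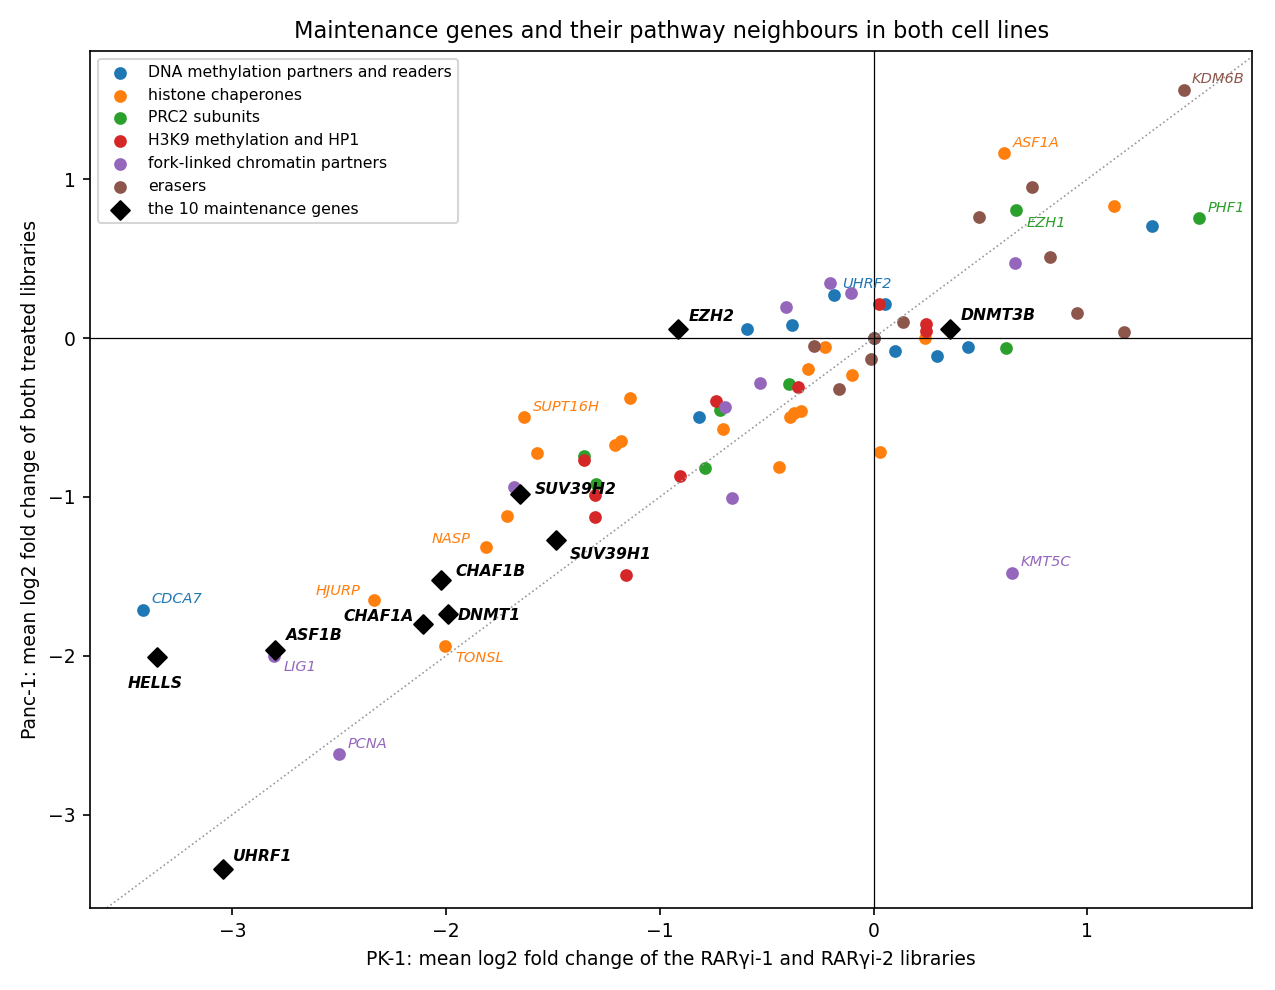
Mean log2 fold change of the RARγi-1 and RARγi-2 libraries in PK-1 (x axis) and Panc-1 (y axis) for the 10 genes (black diamonds) and the genes of 6 pathway lists (coloured points); the dotted diagonal marks equal values. UHRF1 lies lowest in Panc-1, HELLS lies beside its partner CDCA7, EZH2 lies at about 0 in Panc-1, and KDM6B lies highest in Panc-1.

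At the fork itself, PCNA and LIG1, the ligase that joins Okazaki fragments and binds UHRF1, were followed among 11 fork-linked partners. These 2 were the only partners that passed 2-fold downward in all 4 comparisons, against 2.19% of the tested entries. PCNA went from 672 to 156 and 89.2 TPM (PK-1) and from 307 to 48.8 and 49.4 TPM (Panc-1). LIG1 went from 47.5 to 9.49 and 3.57 TPM (PK-1) and from 27.1 to 7.80 and 4.58 TPM (Panc-1). In the single comparisons, 3 and 4 of the 11 passed downward in PK-1 (background 5.2% and 13.5%) and 3 and 5 in Panc-1 (6.51% and 12%). None passed upward in any comparison (9.91%, 12.9%, 7.86% and 9.02%). The list medians were -0.23 and -0.73 (PK-1) and -0.31 and -0.55 (Panc-1). PARP1 had log2 fold changes of -1.40 and -1.96 (PK-1) and -0.74 and -1.13 (Panc-1), and the deacetylase HDAC1 had -0.60 and -0.73 (PK-1) and -0.80 and -1.22 (Panc-1).

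Enzymes that remove the marks were followed as a list of 11 TET, TDG and histone demethylase genes. Of these, 1 passed 2-fold upward in all 4 comparisons, against 2.71% of the tested entries, and none passed downward. It was KDM6B, a demethylase of H3 lysine 27, which went from 14.2 to 37.8 and 43.5 TPM (PK-1) and from 5.73 to 16.7 and 21.4 TPM (Panc-1). KDM4A, a demethylase of H3 lysine 9, had log2 fold changes of 0.74 and 0.75 (PK-1) and 0.96 and 0.94 (Panc-1). TDG, which excises oxidised methylcytosine, stayed within the fold change spread, between -0.39 and -0.01. The medians of the 9 of these genes that reached 5 TPM were 0.70 and 0.75 (PK-1) and 0.09 and 0.33 (Panc-1). A list of 15 germline genes, many of which are known to be silenced by promoter methylation in somatic cells, was at the floor in all 6 libraries, among them DAZL, MAEL, MAGEA1 and CTAG1B. In each library, 74.6% to 75.6% of all entries were at the floor too. Changes under 1 TPM cannot be read from these values, and DNA methylation was not measured.

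Markers of proliferation were lower in the same libraries. MKI67 went from 41.8 to 9.69 and 2.71 TPM (PK-1) and from 93.5 to 18.4 and 9.19 TPM (Panc-1). All 5 markers followed (MKI67, TOP2A, CCNB1, MCM2 and PCNA) passed 2-fold downward in all 4 comparisons, against 2.19% of the tested entries. The summed level of the markers went from 1402 to 366 and 152 TPM (PK-1) and from 1013 to 249 and 175 TPM (Panc-1). Their part in the values of the 10 genes was not tested. By root mean square difference over the 4 fold changes, the entries nearest to the median profile of the 10 genes, among 10619 others that reached 10 TPM in some library, were ESCO2, at 0.07 (log2), POLE, at 0.12, SMC2, at 0.15, GINS4, at 0.15, and PLK4, at 0.16. ESCO2 was at the floor in both RARγi-2 libraries, so its fold changes there understate the decrease.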

How the data were processed

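RNA-seq was analysed in PK-1 and Panc-1 cells, each as control, RARγi-1 or RARγi-2 library (6 libraries, 1 per condition). Per the file headers, the authors deposited log2-transformed TPM, and the values show that anything under 1 TPM had been raised to 1 TPM. Libraries were made from mRNA with a stranded kit, and the submitters' notes name the build hg38. The aligner, the counting tool and the annotation are not given in the sources used here. TPM keeps no depth, so no counting interval was computed.

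The log2 values were returned to the linear scale with Python 3.11.15, pandas 2.3.3 and numpy 2.4.6, and (TPM + 1) was divided by that of the line's control before taking log2. The 12412 entries reaching 5 TPM in any of the 6 libraries formed the background, and the threshold was 2-fold. The fold change spread scales the median absolute deviation of the RARγi-2 minus RARγi-1 difference by 1.4826, using entries that reach 5 TPM in that line. All 10 symbols matched their Entrez gene IDs in RefSeq. No test was run, since no condition has a replicate within its line, and the functions were tested on simulated libraries.

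The 10 genes and all lists were chosen with earlier results of these data known. Named are the 10 genes and their paralogues, the genes of each list past 2-fold in the same direction in all 4 comparisons (at most 6), the 2 most highly expressed others of each list, the proliferation markers and the 5 entries nearest to the median profile. RBBP4, EED, SUZ12, CD68, PRSS1 and KMT5C were named after their values were seen. Alternatives were other pseudocounts (none, 0.1 and 5), rescaling by median ratios, other thresholds (1.5-fold and 3-fold), other minimum levels and TPM summed over entries of a symbol.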

Additional observations from a re-analysis of the deposited data

Results flagged for a closer look

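KMT5C, which encodes a methyltransferase of H4 lysine 20 and is 1 of the 11 fork-linked partners, was singled out because every treated library of PK-1 lay above its control and every treated library of Panc-1 below it, each by more than the fold change spread. It was at 7.48, 11.5 and 13.2 TPM (PK-1) and at 24.1, 7.69 and 8.33 TPM in Panc-1 (control, RARγi-1 and RARγi-2). The log2 fold changes were 0.56 and 0.74 (PK-1) and -1.53 and -1.43 (Panc-1), so that the mean in Panc-1 minus that in PK-1 was -2.13. The difference between the lines was not tested, since there is 1 library per condition. Opposite directions of this kind were found in 1.35% of the 12412 tested entries and in none of the 10 genes above.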

How the results depend on the processing

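Across 331 recomputed values, 21 moved, by more than the fold change spread or, for counts, by more than 1.5 times. None past 2-fold turned its direction, but these alternatives could not have turned one. A pseudocount or a threshold cannot change a sign, and rescaling shifted fold changes by at most about 0.14. Rescaling by median ratios, summing TPM over the entries of a symbol, a 1.5-fold threshold and the other minimum levels moved none. Summing could not, since each of the 10 symbols occurs 1 time, and the shifts by rescaling were smaller than the fold change spread. Rescaling still raised the histone chaperones down in all 4 comparisons from 2 to 3, within the 1.5 times allowed. Rescaling changed the sign of 3 small values: DNMT3B with RARγi-1 (-0.03 in PK-1, -0.05 in Panc-1) and the Panc-1 CHAF1A difference between the inhibitors (0.05). The number of genes down in all 4 comparisons was 7 with each pseudocount and scaling except a pseudocount of 5, where it was 6. That pseudocount ended 4 calls past 2-fold: SUV39H1 in PK-1 RARγi-1 (-0.87), SUV39H2 in PK-1 RARγi-1 (-0.93) and Panc-1 RARγi-2 (-0.88), and EZH2 in PK-1 RARγi-2 (-0.91). With a 3-fold threshold, 4 genes were down in all 4 comparisons (0.709% of tested entries) and 4 in PK-1 RARγi-1 (1.68%). By construction, the pseudocount acts most on levels near the floor. Without one, UHRF1 was at -4.21 in Panc-1 RARγi-2, HELLS at -4.65 in PK-1 RARγi-2, the HELLS difference between RARγi-2 and RARγi-1 in PK-1 was -1.75, and the histone chaperones down in all 4 comparisons numbered 4. With 0.1, these values of UHRF1 and HELLS were -4.17 and -4.57. With 5, UHRF1 was at -2.89 in PK-1 RARγi-2, -2.37 in Panc-1 RARγi-1 and -2.95 in Panc-1 RARγi-2. HELLS was then at -2.14 and -2.80 (PK-1) and at -1.42 and -1.71 (Panc-1). In PK-1 RARγi-2, a pseudocount of 5 gave -1.95 for CHAF1A, -1.85 for CHAF1B, -2.89 for ASF1B, -1.42 for SUV39H1, -1.56 for SUV39H2 and -1.90 for the median of the 10 genes. No fit over both lines with the cell line as a block was run: each comparison was made within 1 line and no result comes from a test. The floor of 1 TPM limits what can be read of HELLS and UHRF1 with RARγi-2. Leaving out a library would remove the comparisons it enters.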
